A study of Mus musculus with 6 samples.

Results

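The 9 genes described here encode extracellular partners of bone morphogenetic protein (BMP) signalling: the ligands Bmp2, Bmp3, Bmp4, Bmp5, Bmp6 and Bmp7, and the secreted antagonists Grem1 (gremlin 1), Nog (noggin) and Fst (follistatin). They were taken by gene name from a table of 54532 mouse genes, and all 9 were in it. RNA came from stromal cells grown out of collagenase-digested chips of femur and tibia and sorted on green fluorescence (GFP in the labels, which name a YFP reporter). WT mice were Prx1-Cre+ with the ROSA-YFP reporter and Zeb1wt/wt, and Zeb1Prx1 mice had the same Cre and reporter with Zeb1fl/fl, so that the controls carried the Cre as well. Prx1-Cre is active in limb mesenchyme, and the mice were untreated. Their age is not given in the sources used here. Each genotype had 3 libraries with 14724357 to 18354894 fragments assigned to genes. The sources used here do not say whether the replicates were separate mice or cultures, and the spread behind each p-value is that between the 3 libraries, which could be technical.

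BMPs are secreted dimers of the transforming growth factor beta superfamily. They bind type I and type II receptor kinases, which phosphorylate Smad1, Smad5 and Smad9, and these enter the nucleus with Smad4 and switch on targets such as the Id genes. In the limb skeleton BMP signalling drives condensation of mesenchyme, cartilage growth and osteoblast differentiation, and Grem1, Nog and Fst act outside the cell by binding the ligands before they reach a receptor.

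Zeb1, the targeted gene, had 6.61, 10.3 and 7.12 FPKM (fragments counted on a gene, scaled by its length and by the library's depth) in WT against 1.92, 1.59 and 2.84 in Zeb1Prx1, with each mutant library below each control. As a check of the sorted cells, all 10 stromal markers were measured above the filter used for testing, with summed FPKM of 2218 to 2925 in WT and 2631 to 4664 in Zeb1Prx1. Most of each stromal sum was Col1a1 and Col1a2. Prrx1, named after its values were seen, had 18.1 to 30.5 FPKM in WT and 18.9 to 22.6 in Zeb1Prx1. All 10 macrophage markers were above the filter too, with sums of 9951 to 12487 and 8423 to 18268, so these genes were also read at high levels in the sorted cells. Most of each macrophage sum was Lyz2, at 8118 to 10490 FPKM in WT and 7034 to 16368 in Zeb1Prx1. Csf1r had 453 to 564 FPKM in WT and 252 to 376 in Zeb1Prx1. Of the 10 macrophage markers, 4 were lower in Zeb1Prx1 with no overlap, beside 11.8% of all tested genes. The sums were 14.8, 206 and 155 in WT and 557, 151 and 2406 in Zeb1Prx1 for the 10 chondrocyte markers, and 3276 to 5990 and 4964 to 6179 for the 9 osteoblast markers. The 6 endothelial markers summed to 2.64 to 3.07 and 1.27 to 1.99 FPKM, and the 6 epithelial markers to 0.0284 to 0.572 and 3.53 to 21.0. In such bulk libraries, fewer cells of a type and less RNA per cell cannot be told apart.

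The antagonist side was dominated by Grem1 and the ligand side by Bmp4. Grem1 was the most abundant of the 9 genes in each library, and its level in every mutant library was below that in every control. Nog went the other way, Bmp4, Bmp5 and Fst had higher means in Zeb1Prx1 with overlapping genotypes, and Bmp2, Bmp3, Bmp6 and Bmp7 were scarce. No gene passed over all genes tested: limma called 0 of 12534 genes (0% of the background) at an adjusted p under 0.05, against 1897 at an unadjusted p under 0.05, and voom on fragment counts recovered from the FPKM called 0, against 1935. Of the 9 genes, 5 reached 1 FPKM in at least 3 libraries and were tested: Bmp4, Bmp5, Grem1, Nog and Fst. Limma called 0 of these 5 and voom 0. By limma 2 had an unadjusted p under 0.05, Nog on the higher side and Grem1 on the lower, against 8.15% and 6.98% of all tested genes (15.1% in either direction), and by voom 3 had. Nog reached the filter only through the mutant libraries, so its place on the higher side was fixed by the filter and supports nothing about the members.

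**Figure D1:**
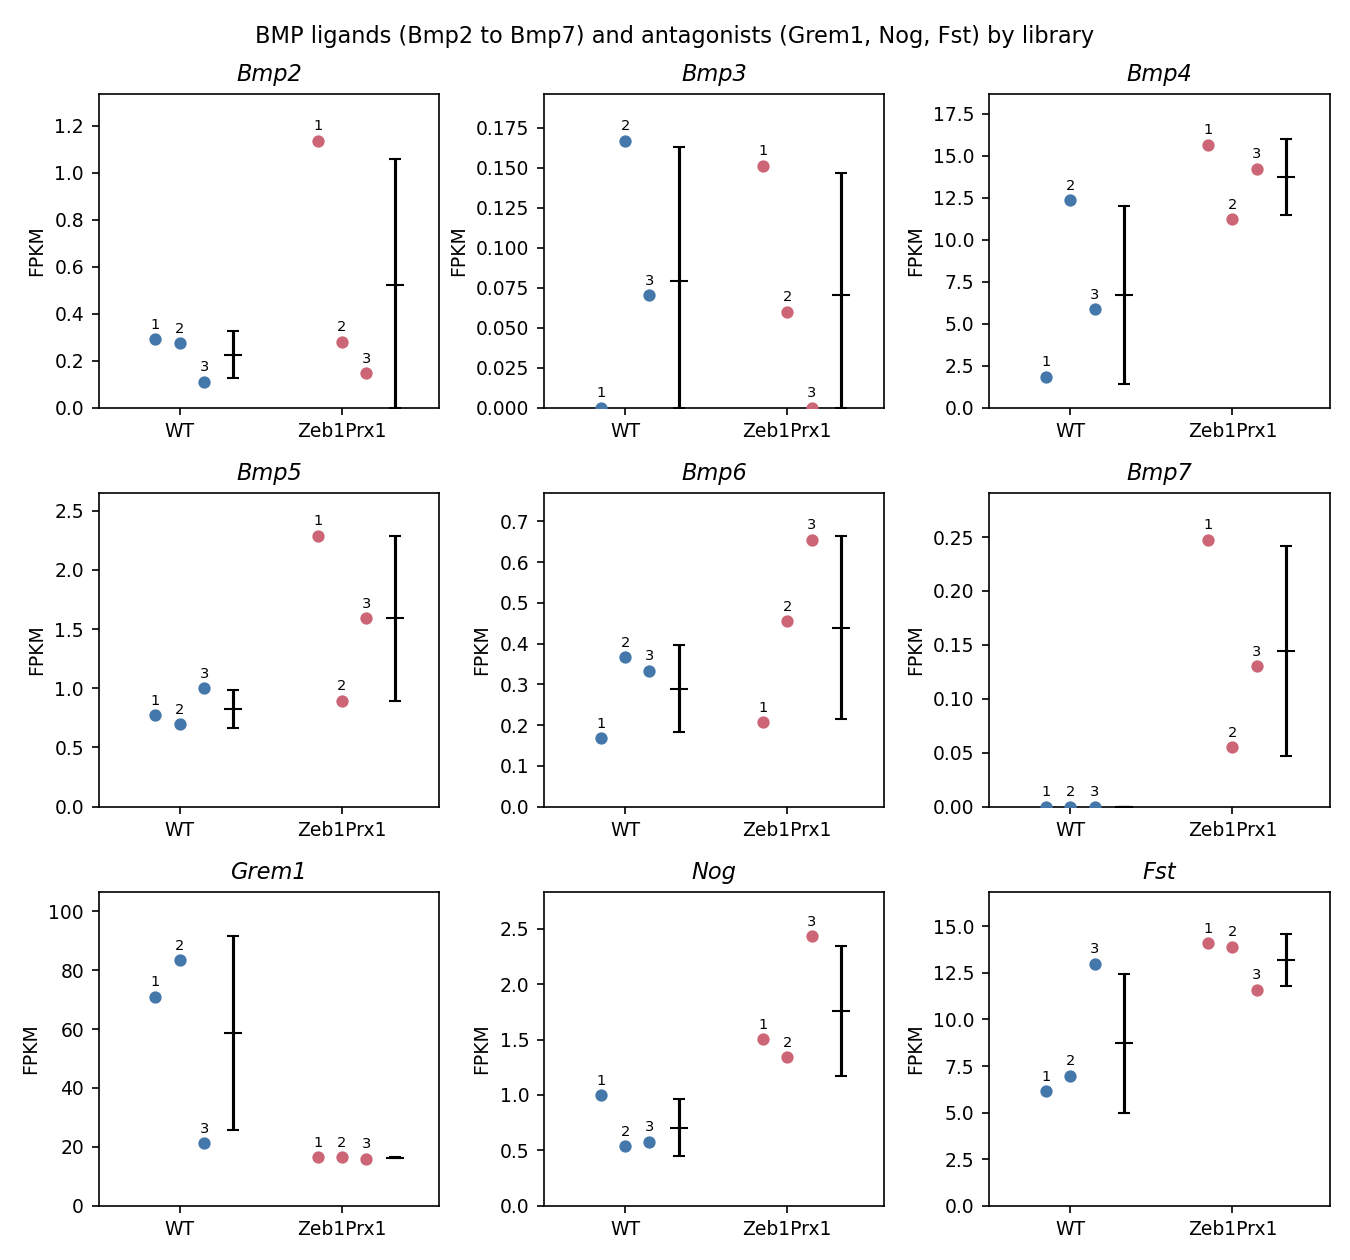
FPKM of each of the 9 genes (vertical axes, each with its own scale from 0) in the WT libraries (blue) and the Zeb1Prx1 libraries (red), with replicate numbers above the points; the bars beside them are the mean and SD of 3 libraries, cut at 0 where the SD exceeds the mean. Grem1 sits between 16.0 and 16.5 in Zeb1Prx1, and its WT values run from 21.2 to 83.4.

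Bmp4, which patterns the limb bud and promotes cartilage and bone formation, is the ligand on which the ligand side rests, and Grem1 is its antagonist. The 250 bases before their transcription starts are shown because these are the genes that carry most of the transcripts on each side and because Zeb1 binds E-boxes of the form CACCTG. The windows were taken from RefSeq (GRCm38.p6), whose table held 4 of the 9 genes, and both run 5′ to 3′ on the gene's own strand. Capitals mark matches to CACCTG on either strand (CAGGTG when on the other strand) and to GGCGCC, a GC-rich palindrome of the kind that BMP-activated Smads can bind; the motifs do not overlap.
Bmp4, chr14:46390670-46390919, minus strand: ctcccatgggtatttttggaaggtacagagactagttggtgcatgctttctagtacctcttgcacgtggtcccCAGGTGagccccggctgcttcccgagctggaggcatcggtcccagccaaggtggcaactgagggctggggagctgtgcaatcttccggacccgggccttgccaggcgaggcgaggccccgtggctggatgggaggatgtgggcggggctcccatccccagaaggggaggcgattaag
Grem1, chr2:113758649-113758898, minus strand: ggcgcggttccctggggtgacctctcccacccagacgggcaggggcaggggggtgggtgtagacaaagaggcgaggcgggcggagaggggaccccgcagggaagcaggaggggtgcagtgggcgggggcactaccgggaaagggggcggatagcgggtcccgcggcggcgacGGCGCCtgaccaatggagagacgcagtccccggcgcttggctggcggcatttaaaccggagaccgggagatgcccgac
The E-box in the Bmp4 window begins 177 bases before the start, and the GGCGCC in the Grem1 window 78 bases before it. Of the 4 windows, those of Bmp4 and Bmp6 held CACCTG (51 bases before the RefSeq start in Bmp6) and those of Grem1 and Bmp5 did not, while the motif occurs in 17.2% of all 32851 windows of this length. The Bmp6 window (chr13:38345466-38345715, plus strand) lies inside the gene as deposited, which starts at 38345107. GGCGCC occurs in 9.59% of them. The windows were 63.2% G and C for Bmp4, 72.0% for Grem1, 68.8% for Bmp6 and 42.8% for Bmp5. These are matches of letters only, and binding was not measured here.

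Among the ligands, Bmp4 (ENSMUSG00000021835, protein-coding, mm10 chromosome 14, 46383520 to 46390669) had 1.85, 12.4 and 5.85 FPKM in WT replicates 1, 2 and 3 and 15.7, 11.2 and 14.2 in Zeb1Prx1. The mutant libraries lay close together, and WT replicate 2 lay among them, above Zeb1Prx1 replicate 2. Mean FPKM was 6.68 ± 5.30 (SD, n = 3) in WT and 13.7 ± 2.27 (SD, n = 3) in Zeb1Prx1, 2.05-fold, or 3.56-fold without WT replicate 2. The log2 change on log2(FPKM + 1), a scale that understates the change of low genes, was 1.19 (SE 0.51, 95% interval -0.02 to 2.41) and did not pass (limma adjusted p = 0.333). Without WT replicate 1 it was 0.61 and without any other library between 1.10 and 1.72. WT replicate 1, lowest in Bmp4, was also the library with the lowest summed chondrocyte markers, the lowest summed stromal markers and the lowest Pdgfra, a stromal receptor gene named after its values were seen (2.65 FPKM, against 30.2 and 15.1 in the other WT libraries). The part of these differences in the Bmp4 values was not tested.

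Bmp5 (ENSMUSG00000032179, chromosome 9, 75775364 to 75900310), whose loss gives the short-ear mouse, had 0.774, 0.695 and 1.00 FPKM in WT, from 43 to 62 fragments, and 2.29, 0.896 and 1.59 in Zeb1Prx1, from 65 to 148. Zeb1Prx1 replicates 1 and 3 lay above the controls and replicate 2 among them. The means were 0.824 ± 0.160 (SD, n = 3) and 1.59 ± 0.696 (SD, n = 3). Its log2 change of 0.48 (SE 0.23, 95% interval -0.08 to 1.03) did not pass (limma adjusted p = 0.365). With the mean of the macrophage markers as a covariate, chosen after seeing the data, it was 0.04.

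The remaining ligands were under 1 FPKM in all libraries, apart from Bmp2 in Zeb1Prx1 replicate 1, and were not tested. Bmp2, an inducer of bone formation and fracture repair, had 0.292, 0.274 and 0.110 FPKM in WT against 1.14, 0.281 and 0.147 in Zeb1Prx1. The mutant mean of 0.522 fell to 0.214 without replicate 1, against 0.225 in WT, so the higher mean came from that library alone. Bmp6, an osteogenic ligand also known for its control of iron through hepcidin, had 0.168, 0.367 and 0.334 in WT and 0.207, 0.455 and 0.655 in Zeb1Prx1, with overlap. The gene overlaps Txndc5 on the other strand, whose level reached 104 FPKM, and without knowledge of strand in the counting some Bmp6 fragments could belong to Txndc5. Bmp3, a ligand that opposes the osteogenic BMPs, had 0 to 0.167 FPKM in WT and 0 to 0.151 in Zeb1Prx1, from at most 19 fragments per library. It was not detectable in WT replicate 1 and Zeb1Prx1 replicate 3, where a count of 0 allows up to 0.0222 and 0.0266 FPKM.

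Bmp7, a ligand of kidney and skeletal development, was the ligand with no fragment in any WT library, which allows up to 0.0408 to 0.0486 FPKM in each. It had 16, 4 and 8 fragments in Zeb1Prx1 replicates 1, 2 and 3, or 0.248, 0.0552 and 0.130 FPKM. Scaled by assigned fragments, and with 3 fragments in all 3 controls together as the floor, the bound on the fold of Bmp7 was 8.90. The 28 mutant fragments were taken as exact. The bound was 5.61 without Zeb1Prx1 replicate 1 and 5.63 without WT replicate 1. Such limits cover counting error in the controls only, and neither that in the mutant counts nor the spread between libraries. With no filter on low values, the log2 change of Bmp7 was 0.19 (limma adjusted p = 0.465 over the genes of that fit). The 6 epithelial markers had higher sums in Zeb1Prx1 beside it (0.0284 to 0.572 against 3.53 to 21.0 FPKM). Of these, Krt8, Esrp1 and Epcam, the last named after its values were seen, were at 0 in all controls. The part of the cells that express them in the Bmp7 values was not tested.

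Among the antagonists, Grem1 (ENSMUSG00000074934, chromosome 2, 113746164 to 113758646) binds Bmp2, Bmp4 and Bmp7 and marks a skeletal stem cell population in bone. It had 71.0, 83.4 and 21.2 FPKM in WT, from 5391, 5322 and 1349 fragments, and 16.4, 16.5 and 16.0 in Zeb1Prx1, from 1013 to 1231 fragments. The mutant libraries were nearly equal, and WT replicate 3 lay far nearer to them than to the other controls. Mean FPKM was 58.5 ± 32.9 (SD, n = 3) and 16.3 ± 0.264 (SD, n = 3), 0.278-fold. The log2 change was -1.57 (SE 0.48, 95% interval -2.70 to -0.44) and did not pass over all genes (limma adjusted p = 0.275). Without WT replicate 3 it was -2.17, and without WT replicate 1 or 2 it was -1.32 and -1.21, each short of the threshold as well. Of the 10 macrophage markers, 8 had a log2 change below 0 beside it, with a median of -0.44. With their mean as a covariate, chosen after seeing the data, the Grem1 change was -2.05 (SE 0.86) and did not pass (limma adjusted p = 0.232). The part of the macrophages in the Grem1 values was not tested.

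Nog (ENSMUSG00000048616, chromosome 11, 89300638 to 89302332), which binds BMPs and keeps forming joints and cartilage within bounds, had 0.999, 0.537 and 0.576 FPKM in WT, from 14 to 31 fragments. In Zeb1Prx1 it had 1.51, 1.34 and 2.43 FPKM, from 41 to 63 fragments. All mutant libraries were above all controls. Because each control was under 1 FPKM and each mutant library above it, Nog reached the filter only through the group in which it was higher, and its separation was fixed by that. The means were 0.704 ± 0.256 (SD, n = 3) and 1.76 ± 0.589 (SD, n = 3), 2.50-fold, with a log2 change of 0.69 (SE 0.21, 95% interval 0.18 to 1.19) that did not pass (limma adjusted p = 0.278). It passed with library weights (log2 change 0.95, limma adjusted p = 0.0497), a setting that called 447 of 12534 genes. In that setting Zeb1Prx1 replicate 3, the library with the highest Nog, had a weight of 2.82, and replicate 2 had 0.226. With the macrophage covariate its log2 change was 0.23.

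Fst (ENSMUSG00000021765, chromosome 13, 114452290 to 114458951), best known for binding activins and also a binder of BMPs, had 6.15, 6.99 and 13.0 FPKM in the controls and 14.1, 13.9 and 11.6 in Zeb1Prx1. WT replicate 3 lay at the mutant level, between Zeb1Prx1 replicates 2 and 3, as it lay near the mutant level for Grem1. Mean FPKM was 8.71 ± 3.73 (SD, n = 3) and 13.2 ± 1.39 (SD, n = 3), a log2 change of 0.61 (SE 0.26, 95% interval -0.02 to 1.23) that did not pass (limma adjusted p = 0.334). Without WT replicate 3 it was 0.90 and without WT replicate 1 it was 0.42. With the macrophage covariate it was 1.04 and did not pass (limma adjusted p = 0.235).

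Read against all genes, 2 of the 5 tested members (Grem1 and Nog) had genotypes that did not overlap. This held for 24.4% of all tested genes (12.6% higher and 11.8% lower in Zeb1Prx1), and in Nog it was set by the filter, so the count does not set the members apart. A log2 change above 0 was seen in 4 of the 5, against 51.9% of all tested genes. Nog is among these 4 with its direction set by the filter, so this count does not set the members apart either. The median log2 change was 0.83 over the 2 tested ligands, against 0.02 over all genes. Over the 3 antagonists it was 0.61, the value of Fst, and it was above 0 only because Nog was counted. Without Nog, Fst (0.61) and Grem1 (-1.57) lay on opposite sides of 0, so this median gives no direction for the antagonists.

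**Figure D2:**
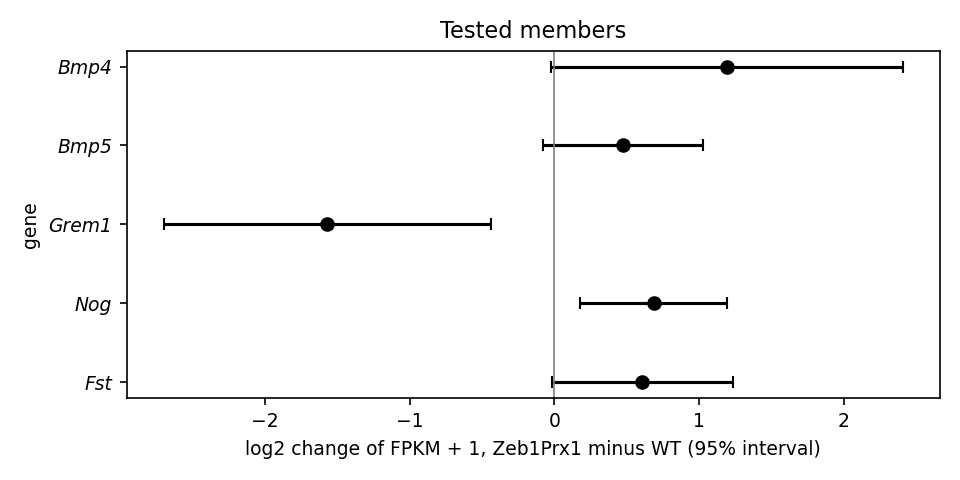
Log2 change of FPKM + 1, Zeb1Prx1 minus WT (horizontal axis), for the 5 tested members, with 95% intervals from limma as bars. The intervals of Grem1 (-2.70 to -0.44) and Nog (0.18 to 1.19) do not reach 0, those of Bmp4, Bmp5 and Fst do, and none of the 5 passed after adjustment over all genes.

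FPKM is a level per gene length, so the members can be ordered. In WT the order of means was Grem1, Fst, Bmp4, Bmp5, Nog, Bmp6, Bmp2, Bmp3 and Bmp7. In Zeb1Prx1 it was Grem1, Bmp4, Fst, Nog, Bmp5, Bmp2, Bmp6, Bmp7 and Bmp3. Fst and Bmp4 lay within 1 SD of each other in both genotypes, as did Nog and Bmp5, the scarce ligands Bmp2 and Bmp6, and Bmp3 and Bmp7 in Zeb1Prx1. In Zeb1Prx1 the gap between Grem1 and the next gene had narrowed to 16.3 against 13.7 FPKM, with Zeb1Prx1 replicate 1 at 16.4 for Grem1 and 15.7 for Bmp4.

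Summed over the 6 ligands, levels were 3.08, 13.9 and 7.37 FPKM in WT against 19.7, 13.0 and 16.8 in Zeb1Prx1. Bmp4 made up 59.95% to 89.2% of this sum in WT and 79.5% to 86.5% in Zeb1Prx1. The 3 antagonists summed to 78.2, 91.0 and 34.8 FPKM in the controls and 32.0, 31.7 and 30.0 in Zeb1Prx1, with Grem1 at 60.9% to 91.7% of the sum in WT and 51.3% to 53.3% in Zeb1Prx1. Nog and Fst together were 7.15, 7.52 and 13.6 FPKM in WT against 15.6, 15.2 and 14.0 in Zeb1Prx1. In each of these antagonist measures WT replicate 3 lay closer to the mutant libraries than to the other controls, so that the distance between the genotypes came mainly from WT replicates 1 and 2.

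Ligand transcripts per antagonist transcript, the ratio of the sums within a library, were 0.0394, 0.152 and 0.212 in WT and 0.615, 0.409 and 0.559 in Zeb1Prx1. The antagonists exceeded the ligands in all 6 libraries, and the ratio was higher in each mutant library than in each control. The mean ratio was 0.135 ± 0.0877 (SD, n = 3) in WT and 0.528 ± 0.106 (SD, n = 3) in Zeb1Prx1. On a log2 scale the difference was 2.26, and 1.53 without WT replicate 1, which had the lowest ratio. It rested on Grem1: without it the ratio was 0.431, 1.84 and 0.543 in WT against 1.26, 0.851 and 1.19 in Zeb1Prx1, the genotypes overlapped, and the log2 difference was 0.53. Without Bmp4 the log2 difference was 1.89. These sums describe the chosen genes, and no test was made of them.

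**Figure D3:**
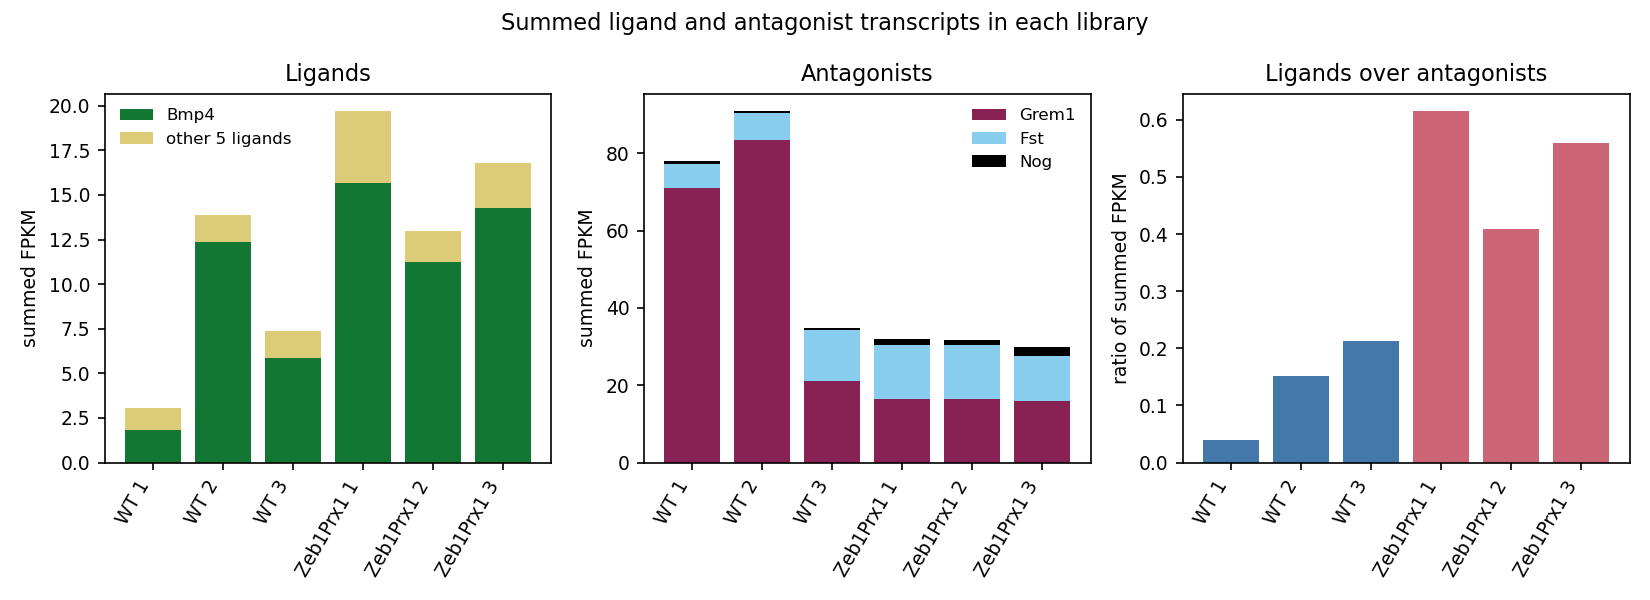
Summed FPKM of the ligands (left, Bmp4 and the other 5) and of the antagonists (middle, Grem1, Fst and Nog), and the ratio of the sums (right), as 1 bar per library. WT replicates 1 and 2 carry 71.0 and 83.4 FPKM of Grem1, WT replicate 3 carries 21.2, close to the mutant libraries, and the ratio is 0.0394 to 0.212 in WT and 0.409 to 0.615 in Zeb1Prx1.

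The rest of the pathway was described through 7 lists with 73 genes, of which 72 were in the table and 47 were tested. Limma called 0 of the 47. Genotypes did not overlap for 5 genes on the higher side (Id1, Id3, Dlx5, Bambi and Inha) and 2 on the lower (Bmpr2 and Smurf1), against 12.6% and 11.8% of all tested genes.

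**Figure D4:**
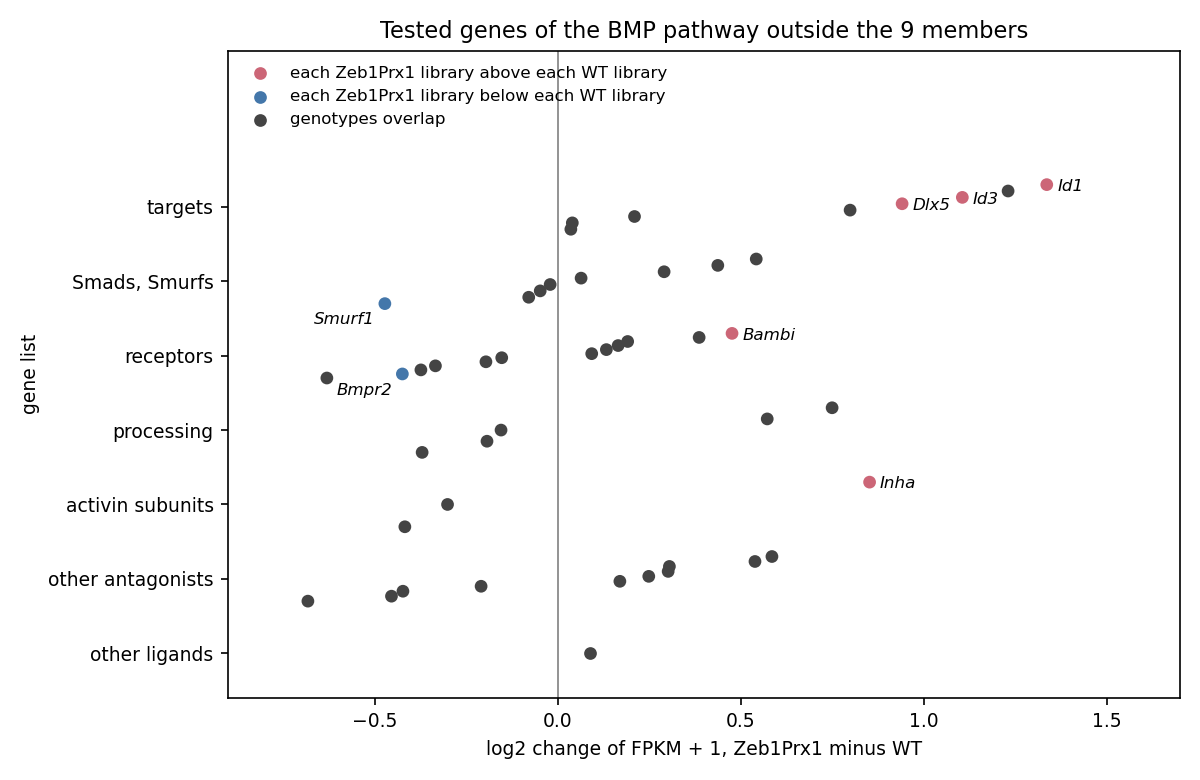
Log2 change of FPKM + 1, Zeb1Prx1 minus WT (horizontal axis), of the 47 tested pathway genes outside the 9 members, by list (vertical axis), with genes whose genotypes do not overlap in colour and named. All 8 tested targets lie above 0 on this scale (6 after rescaling each library to the same FPKM sum), with Id1 at 1.34 and Id3 at 1.11. The other lists lie on both sides of 0, apart from the single tested gene among the other ligands.

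Further ligands were scarce. Of 11 listed, only Gdf11, a ligand of vertebral patterning, was tested, with 5.33 ± 1.05 (SD, n = 3) against 5.74 ± 1.17 FPKM (SD, n = 3). The growth factor gene Gdf10, named after its values were seen, had 0.0210, 0 and 0.0125 FPKM in the controls and 0.167, 0.213 and 9.73 in Zeb1Prx1, with replicate 3 far above the rest. Of the joint-forming ligands, also named after their values were seen, Gdf5 reached 2.91 FPKM and Gdf6 2.45 in Zeb1Prx1 replicate 3, the library with the highest chondrocyte markers; the part of these cells was not tested.

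The other antagonists gave 10 tested genes of 14, with 6 above 0, 4 below and a median log2 change of 0.21. Bmper, a BMP-binding modulator, had 5.13, 6.02 and 5.44 against 2.82, 3.68 and 5.43 FPKM. Twsg1 (twisted gastrulation) had 27.3 ± 10.95 (SD, n = 3) against 42.3 ± 21.8 FPKM (SD, n = 3). Crim1, a membrane-bound BMP binder, had 19.6, 16.2 and 8.65 against 9.75, 5.75 and 17.4. None of the 10 differed between genotypes without overlap. Inhba and Inhbb, which encode subunits of activins, the main ligands of Fst, had 38.3 ± 21.8 against 27.3 ± 5.44 and 4.19 ± 1.19 against 3.08 ± 1.64 FPKM. Inha, the inhibin subunit that opposes activin, had 1.26, 1.06 and 1.28 in WT and 2.28, 2.44 and 4.53 in Zeb1Prx1, with no overlap (log2 change 0.85, SE 0.23, limma adjusted p = 0.273).

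Enzymes that mature BMPs or cleave their antagonists had 5 tested genes of 7, with 2 above 0. Pcsk6, a proprotein convertase, had 2.33, 3.17 and 6.06 FPKM in the controls and 5.78, 6.56 and 5.29 in Zeb1Prx1, where WT replicate 3 again lay at the mutant level. Its relatives Furin (24.01 ± 3.02 against 18.8 ± 5.58) and Pcsk7 (8.92 ± 1.25 against 7.69 ± 1.27) overlapped between genotypes. So did Pcsk5, with 0.777 ± 0.361 FPKM in WT and, in Zeb1Prx1, 6.09 in replicate 3 beside 1.35 and 0.540 in the others.

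Receptors and co-receptors had 12 tested genes of 14, with 6 above and 6 below 0 and a median log2 change of -0.03. Bambi, a decoy receptor that is itself induced by BMP signalling, had 1.11, 1.03 and 1.602 FPKM in WT, under the 1.98 to 2.23 of Zeb1Prx1 (log2 change 0.48, SE 0.16, limma adjusted p = 0.292). Bmpr2, the type II BMP receptor, had 8.28, 9.02 and 8.47 against 8.19, 4.41 and 6.33 FPKM, separated by a small margin at Zeb1Prx1 replicate 1. Eng (endoglin, 20.8 ± 4.05 against 13.2 ± 3.59) and Acvrl1 (6.74 ± 1.52 against 4.93 ± 0.691), receptors known from endothelium, had lower means in Zeb1Prx1 and overlapped. Beside them, the 6 endothelial markers summed to 2.64 to 3.07 FPKM in WT and 1.27 to 1.99 in Zeb1Prx1, with 5 of the 6 under 1 FPKM in all libraries; their part was not tested.

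The Smad and Smurf list had 8 tested genes of 8, with 4 above and 4 below 0 and a median of 0.02. Smurf1, a ubiquitin ligase that degrades BMP Smads, had 10.8, 11.2 and 8.99 FPKM in WT against 8.71, 5.83 and 7.09 in Zeb1Prx1 (log2 change -0.47, SE 0.17, limma adjusted p = 0.302). Smad6, a feedback inhibitor, had 7.52, 15.2 and 9.67 against 15.5, 10.7 and 17.9, and Smad9 1.22 ± 0.614 against 2.37 ± 1.32. Smurf2 had 23.6 ± 4.18 against 29.7 ± 9.51. These genes did not pass. With the macrophage covariate, chosen after seeing the data, 1 of the 12 receptor genes and 0 of the 8 Smad and Smurf genes had a log2 change above 0. The targets stayed at 8 of 8, with their median falling from 0.87 to 0.61. The same covariate took the chondrocyte median from 2.17 to 0.006 (4 of 7 above 0) and the osteoblast median from 0.70 to 1.35. It thus shifted the lists of other cell types as well, and these counts do not separate the part of the macrophages.

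Of 13 listed targets of BMP signalling 8 were tested, and limma called 0. All 8 had a log2 change above 0, or 6 after rescaling each library to the same FPKM sum, where Id2 and Id4 fell below it, and 7 with quantile scaling or voom, where Id2 did. Their median was 0.87, or 0.73 with the equal sum, against 0.02 and -0.12 for all genes. Here 3 of 8 were higher with no overlap, beside the 12.6% of all genes. Beside them, all 7 tested osteoblast markers had a log2 change above 0 (median 0.70), as had all 7 tested chondrocyte markers (median 2.17), and Runx2 and Sp7 stand on both the target and the osteoblast list. Of the chondrocyte markers, Acan and Col11a2, the latter named after its values were seen, reached the filter only through the mutant libraries. Their place above 0 was fixed by that. The part of these cells in the target values was not tested. Id1 and Id3, inhibitors of basic helix-loop-helix factors and direct targets of BMP Smads, were higher in each mutant library. Id1 had 19.9, 17.0 and 8.42 FPKM in the controls and 31.5, 34.4 and 48.8 in Zeb1Prx1 (log2 change 1.34, SE 0.33, limma adjusted p = 0.264). Id3 had 61.3, 96.8 and 68.5 in WT and 121, 152 and 226 in Zeb1Prx1 (log2 change 1.11, SE 0.29, limma adjusted p = 0.273). Dlx5, a homeobox factor of osteoblasts, had 3.16, 2.53 and 2.68 in WT and 10.0, 5.12 and 4.66 in Zeb1Prx1 (log2 change 0.94, SE 0.26, limma adjusted p = 0.273). With library weights Id1, Id3 and Inha passed (limma adjusted p = 0.0498, 0.0497 and 0.0463), in a setting that called 447 of 12534 genes. Each of them was highest in Zeb1Prx1 replicate 3, which had a weight of 2.82 there, against 0.226 for replicate 2.

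**Figure D5:**
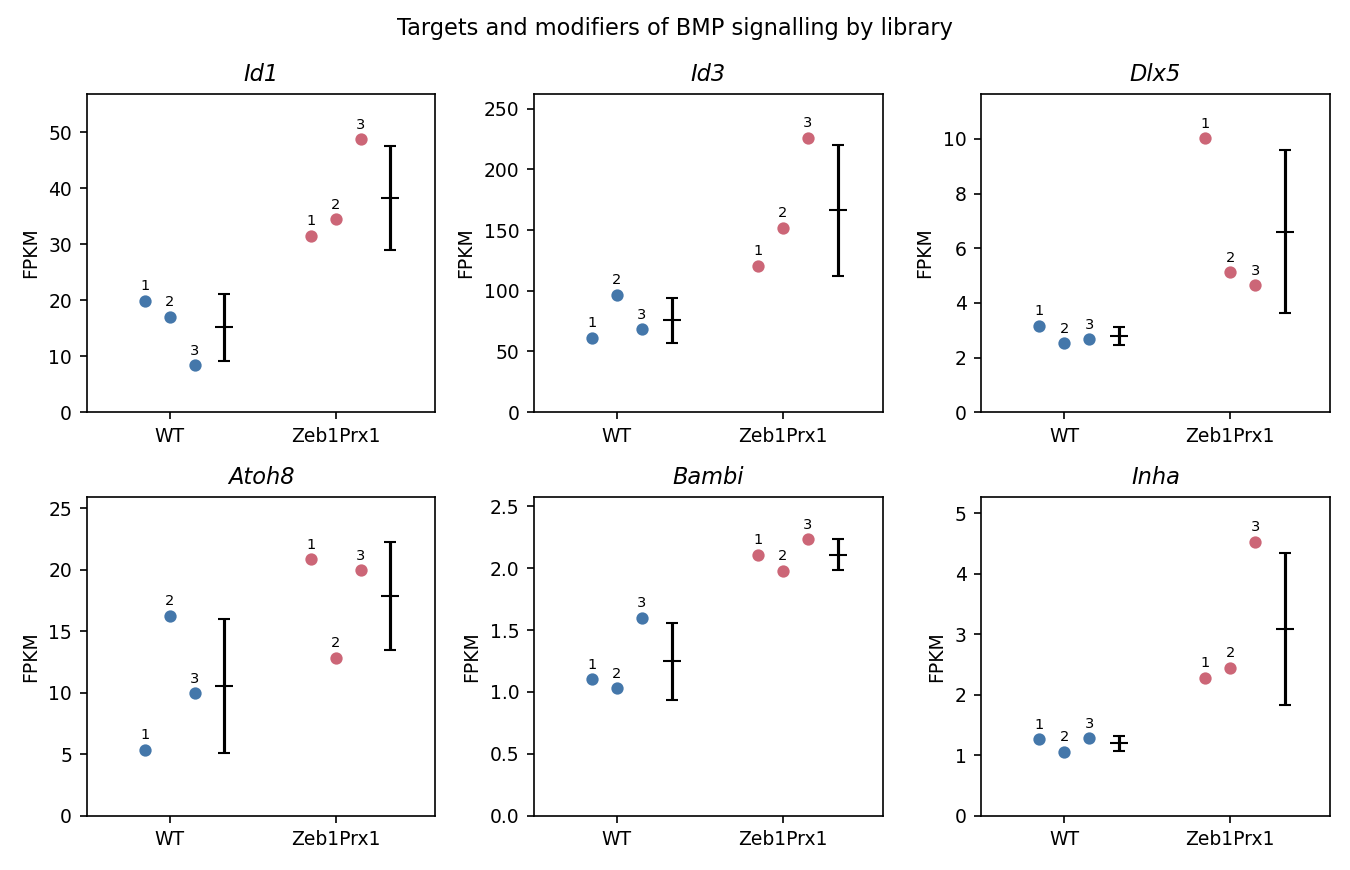
FPKM (vertical axes from 0) of the targets Id1, Id3, Dlx5 and Atoh8, the decoy receptor gene Bambi and the inhibin subunit gene Inha in the WT (blue) and Zeb1Prx1 (red) libraries, with replicate numbers above the points and the mean and SD of 3 libraries as bars. Every mutant library lies above every control for Id1, Id3, Dlx5, Bambi and Inha, and Atoh8 overlaps, with WT replicate 2 at 16.3 and Zeb1Prx1 replicate 2 at 12.9.

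The profiles most like those of Bmp4 and Grem1, among genes averaging 5 FPKM or more, were found by Pearson's r of log2(FPKM + 1) over the 6 libraries, over 7639 genes each, as a description. For Bmp4 these were Gcc1 (r = 0.987), Atoh8 (0.979), the mitochondrial gene mt-Nd3 (0.972) and Camk2n2 (0.970), and 21 genes had r above 0.9. Atoh8, a transcription factor induced by BMP signalling, was also on the target list, and it had 5.36, 16.3 and 9.97 FPKM in WT against 20.9, 12.9 and 19.95 in Zeb1Prx1. As for Bmp4, it was lowest in WT replicate 1 and highest in Zeb1Prx1 replicate 1, with WT replicate 2 above Zeb1Prx1 replicate 2. For Grem1 they were Lrrfip1 (r = 0.989), Aldh3a2 (0.985), the metalloprotease gene Adam8 (0.975) and Ubap1 (0.971), and 43 genes had r above 0.9. Adam8 had 170, 169 and 90.8 FPKM in the controls and 98.0, 80.1 and 80.4 in Zeb1Prx1, with WT replicate 3 at the mutant level as for Grem1. The 6 libraries behind each r are shared by all these genes.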

How the data were processed

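Per the file headers and the file's title, the authors deposited FPKM per gene for 6 libraries, with coordinates and gene length in bases. The submitters' processing notes name mm10 as the build. Aligner, counter and strand setting: not given in the sources used here. Multiplied by gene length, all 127408 non-zero values fell on whole steps of their library (relative tolerance 1e-06), and the steps were read as fragments. Coordinates of the 9 genes were identical in GENCODE release M21.

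The genotypes were compared on log2(FPKM + 1) in R 4.3.3 by limma 3.58.1, with the prior variance following the mean level, over genes with at least 1 FPKM in at least 3 libraries, with Benjamini-Hochberg adjustment over all of them and a threshold of 0.05. The script was tested on simulated data. Named were the 9 genes, Zeb1, up to 4 tested genes with the smallest p of each pathway list, up to 3 of the most abundant markers of each cell type, and the 4 genes most like the most abundant ligand and antagonist; others are marked as named after their values were seen. Markers are given as sums, apart from Krt8 and Esrp1, and 1 pathway gene under this rule is not reported here. The members and lists were chosen with earlier results of these data known. Another 18 settings were tried, 1 of them (macrophage markers as covariate) chosen after seeing the data.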

Additional observations from a re-analysis of the deposited data

How the results depend on the processing

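The 5 tested members kept the direction of their log2 change under all 18 alternatives in which they could be fitted. The ranges were -2.17 to -1.21 for Grem1 (limma adjusted p 0.119 to 0.538), 0.61 to 1.72 for Bmp4 (0.169 to 0.573), 0.41 to 1.04 for Fst (0.235 to 0.594), 0.23 to 1.22 for Nog (0.0497 to 0.696) and 0.04 to 0.80 for Bmp5 (0.0876 to 0.953). Nog with library weights was the only call among them. Nog fell under the filter with a mean FPKM of at least 5 and without any Zeb1Prx1 library, and Bmp5 with that filter and without WT replicate 3 or Zeb1Prx1 replicate 1 or 3. The number of genes past the threshold was 0 in all settings except library weights (447) and leaving out a library (0 to 1, the 1 without Zeb1Prx1 replicate 2). Rescaling to an equal sum of FPKM shifted the median gene from 0.02 to -0.12 (log2), and at an unadjusted p under 0.05 it gave 612 genes higher and 1279 lower, and voom 746 and 1189, against 1022 and 875. The log2 difference in the ligand to antagonist ratio was 0.53 without Grem1, and 1.53 to 2.75 when a library was left out. With the replicate number as a block, 0 genes were called and limma's adjusted p was 0.443 for Grem1 and Nog. Same-numbered libraries did not deviate together (correlations 0.03, -0.41 and 0.08), while differently numbered ones ranged from -0.48 to 0.46. These are deviations from means of 3 libraries, so they cannot decide whether the numbers pair the libraries. The tests for raw counts listed among the alternatives were not run, since the deposited values are FPKM. Depth limits Bmp2, Bmp3, Bmp6 and Bmp7, with at most 65 fragments in a library.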
